A study of Caenorhabditis elegans with 2 samples.

Results

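LSY-12 is a MYST-type histone acetyltransferase of *Caenorhabditis elegans*. Of its 2095 thresholded ChIP-seq peaks, 242 had their summit inside an intron of an autosomal protein-coding gene and away from gene starts. They were chosen by the position of the summit alone, and 154 of them had no exon anywhere in the peak. The summit lay within a protein-coding gene on chromosome I, II, III, IV or V and in no exon of any gene. It was more than 500 bp from the most 5′ start of every protein-coding gene, and not within 500 bp of the start of a tRNA, snoRNA, snRNA or miRNA gene. The other 1853 thresholded peaks were 738 at autosomal promoters (no more than 500 bp from a protein-coding start), 393 between autosomal genes and away from starts, and 722 elsewhere, chromosome X included.

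The animals were whole larvae of strain OP568, genotype unc-119(tm4063) III; wgIs568, which stably expresses LSY-12 with a C-terminal GFP-FLAG tag from an integrated transgene, and chromatin was precipitated with an antibody against GFP. They were of mixed sex and at the L3 stage, collected 43 h after starved L1 larvae had been synchronized. All animals carried the unc-119 allele and the transgene, and the lists come from 1 group of 2 biological replicates, numbered 3 and 4. The antibody label of both replicates reads lsy-12, the protein that carries the tag. No second condition, untagged strain or separate tissue was analysed here, so a value from whole animals cannot tell binding in few cells from weak binding in many.

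MYST acetyltransferases add acetyl groups to histone tails, a mark of open and transcribed chromatin, and reach DNA as part of larger complexes rather than by a strict sequence of their own. LSY-12 is known from the worm for its role in making the left and right ASE taste neurons differ. Most worm introns are short. Long introns, and above all the first one of a gene, are known in animals to hold enhancers and the promoters of shorter transcripts.

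The sequences under the summits show the short motifs that recurred among the intron peaks, and a few are given before the values. Each is the WBcel235 reference sequence (RefSeq) from 50 bp before to 50 bp after the summit, 5′ to 3′ on the strand of the host gene. Capitals mark matches, on either strand, to the GA repeat GAGAGA, which reads as TCTCTC on the opposite strand, to the palindromic E-box CACGTG and to the 7-letter motif CTGCGTC. The first 3 were chosen for CTGCGTC at strong peaks, the next 2 for CTGCGTC together with GA repeats, the next for a GA repeat with the E-box, and the next 2 for a GA repeat alone. The last 2 hold none of these motifs and come from peaks of high signal.
epg-9 chrIV:2602095-2602195, plus strand: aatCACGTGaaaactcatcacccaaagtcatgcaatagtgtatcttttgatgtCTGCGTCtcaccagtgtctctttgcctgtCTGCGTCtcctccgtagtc
Y111B2A.12 chrIII:12612614-12612714, plus strand: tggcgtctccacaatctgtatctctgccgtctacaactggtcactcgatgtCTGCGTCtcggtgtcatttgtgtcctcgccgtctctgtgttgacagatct
zfp-1 chrIII:8802060-8802160, plus strand: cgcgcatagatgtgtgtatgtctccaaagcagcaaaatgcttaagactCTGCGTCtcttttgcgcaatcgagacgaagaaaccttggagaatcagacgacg
Y43F8B.2 chrV:19522818-19522918, minus strand: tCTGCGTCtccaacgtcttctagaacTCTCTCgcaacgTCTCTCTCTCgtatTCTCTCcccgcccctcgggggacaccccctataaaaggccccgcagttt
spop-1 chrIII:10096672-10096772, minus strand: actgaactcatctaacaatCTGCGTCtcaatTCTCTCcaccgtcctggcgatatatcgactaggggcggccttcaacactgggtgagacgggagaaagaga
pkg-2 chrIV:8527831-8527931, plus strand: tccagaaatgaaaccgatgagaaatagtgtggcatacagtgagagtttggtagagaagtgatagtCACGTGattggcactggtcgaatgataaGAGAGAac
zfp-1 chrIII:8795845-8795945, plus strand: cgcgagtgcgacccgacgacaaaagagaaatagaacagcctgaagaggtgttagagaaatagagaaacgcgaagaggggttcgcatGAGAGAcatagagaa
daf-5 chrII:14040370-14040470, minus strand: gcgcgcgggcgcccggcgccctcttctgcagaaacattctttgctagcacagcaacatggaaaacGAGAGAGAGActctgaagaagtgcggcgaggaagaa
pqn-41 chrIII:1925330-1925430, plus strand: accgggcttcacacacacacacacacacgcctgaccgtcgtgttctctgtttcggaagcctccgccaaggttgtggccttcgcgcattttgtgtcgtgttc
lin-42 chrII:1242599-1242699, minus strand: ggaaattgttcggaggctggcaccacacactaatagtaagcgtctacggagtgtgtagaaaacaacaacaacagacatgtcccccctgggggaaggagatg

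The intron peak of highest signal stood in the second of 5 introns of epg-9, which encodes an autophagy protein (chrIV:2602047-2602272, intron length 1824 bp). Its relative signal, the deposited signal divided by the median of the 30000 candidate regions of the same list, was 8.61 in replicate 3 and 10.4 in replicate 4. The peak in intron 4 of Y111B2A.12 (chrIII:12612549-12612724) followed with 8.07 and 9.91, and that in the first intron of T28F4.1 with 8.13 and 7.63. In replicate 3 these were the 3 highest intron peaks, while in replicate 4 the peak of gei-4 exceeded that of T28F4.1. Their means were 9.50 ± 1.26, 8.99 ± 1.30 and 7.88 ± 0.351 (SD, n = 2). The peak of epg-9 was the higher of the first 2 in both replicates.

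The other intron peaks among the 15 of highest signal are given by what is known of their hosts. A peak in intron 5 of zfp-1, the homolog of the chromatin protein AF10, had a relative signal of 6.68 in replicate 3 and 7.26 in replicate 4. The peak in intron 5 of ints-8, a subunit of the Integrator complex, had 6.42 and 6.55. That in the first intron of mdt-26, a Mediator subunit, had 5.61 and 6.61 (chrII:5661596-5662081). This intron is 386 bp long, shorter than the peak of 486 bp. The peak in intron 7 of pbrm-1, the polybromo subunit of a SWI/SNF chromatin remodelling complex, had 5.4 and 6.63, and that in intron 20 of nurf-1, the large subunit of the NURF remodelling complex, 4.83 and 6.72. All were above the median of the intron peaks in both replicates, and the replicates lay furthest apart at nurf-1.

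Further peaks among the 15 stood in genes with other or less known roles. The peak in intron 4 of Y43F8B.2 (chrV:19522796-19522941) had a relative signal of 6.65 in replicate 3 and 6.95 in replicate 4, and its summit lay at −7 bp from another annotated transcript start of the gene. The intron 5 peak of W06H8.6 had 6.24 and 6.75. In pqn-41, which encodes a glutamine-rich protein, 2 of the 15 peaks lay in intron 15, with 6.46 and 7.03 at the stronger and 6.58 and 4.63 at the other. The first intron of gei-4 held a peak with 5.28 and 7.85, and intron 7 of ppfr-1, a homolog of a regulatory subunit of protein phosphatase 4, one with 5.92 and 6.52.

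Set beside the other thresholded peaks, intron peaks were of moderate signal. Their median relative signal was 2.63 in replicate 3 (lowest 1.28, highest 8.61) and 2.56 in replicate 4 (lowest 1.21, highest 10.4). Promoter peaks had medians of 3.02 and 3.25, and peaks between genes of 2.72 and 2.93. The medians were thus lower for intron peaks than for both other classes in both replicates, while the ranges overlapped widely. Intron peaks made up 11.6% of all thresholded peaks, but 2 of the 100 of highest signal, 36 of the highest 500 and 84 of the highest 1000.

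**Figure D1:**
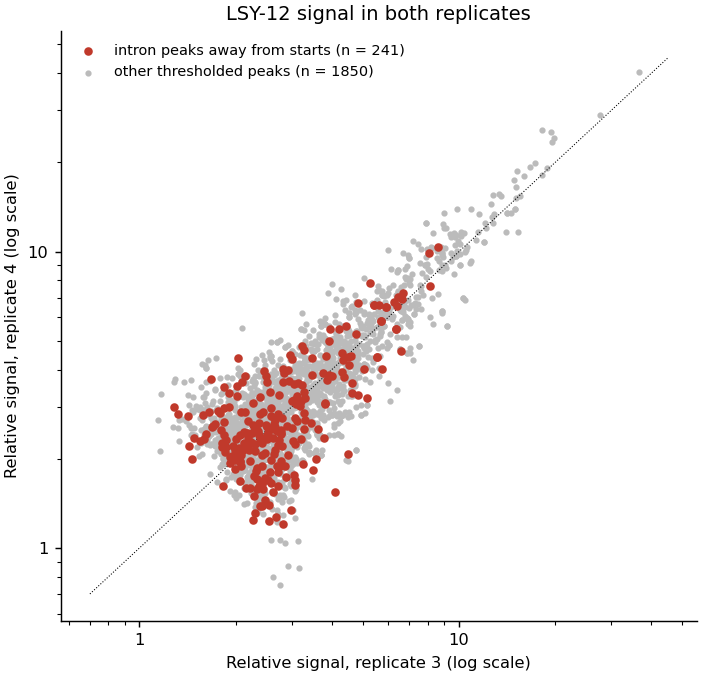
Relative signal of thresholded peaks in replicate 3 (x axis) and replicate 4 (y axis), both on log scales and in multiples of the median of the 30000 regions of the same list. Intron peaks away from starts (red, n = 241) lie in the lower and middle part of the cloud of other peaks (grey, n = 1850), with medians of 2.63 in replicate 3 and 2.56 in replicate 4; the dotted line marks equal values.

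Candidate regions in introns passed the authors' threshold less often than others. Of the 5735 pooled candidate regions whose summit met the same position rule, 242 (4.22%, exact 95% interval 3.71 to 4.77%) were in the thresholded list, against 7.64% (7.30 to 7.98%) of the other 24265. Over all 30000 candidate regions the share was 6.98%. Among the intron peaks, 107 had a q-value of 0.01 or below (44.2%, 37.9 to 50.7%), against 60.2% of the other thresholded peaks and 58.3% of all of them. These were the 107 intron peaks of highest signal, so this share follows signal and is no separate measure.

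The replicates matched less closely at intron peaks than at promoters. Of the intron peaks, 145 (59.9%, 53.5 to 66.1%) overlapped one of the 2095 regions of highest signal in both replicate lists, against 75.3% (72.1 to 78.4%) of promoter peaks, 69.2% (64.4 to 73.7%) of peaks between genes and 70.6% of all thresholded peaks. They overlapped such a region of replicate 3 in 83.1% of cases and of replicate 4 in 74.0%, and 7 peaks did so in neither. This measure is itself a cut on signal. Above the median signal of the thresholded list lay 37.2% of intron peaks and 56.5% of promoter peaks. The classes were not compared at like signal. Across intron peaks the relative signals of the replicates had a Spearman's rho of 0.51 (n = 241), against 0.78 over promoter peaks (n = 737), 0.606 over peaks between genes (1 of 393 not matched in replicate 4) and 0.672 over the remaining peaks (n = 721). Peaks of one list share library and threshold, so these values describe the lists. The relative signal in the thresholded list ranged from 2.13 to 10.4 over intron peaks and from 2.14 to 41.9 over promoter peaks, and the part of this range in the rho was not tested. Read depth is not given in the lists. All intervals on shares are Clopper-Pearson intervals and those on densities exact Poisson intervals, and both cover counting error only. Neighbouring peaks are not independent, so no test was run between classes of peaks.

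The intron peaks fell in 184 host genes, 1.27% of the 14543 autosomal protein-coding genes that have at least 1 base meeting the rule. They lay in 202 distinct introns. A single peak was found in 146 hosts, 2 in 25, 3 in 8, 4 in 3 and 5 in 2. The 38 hosts with 2 or more held 96 of the 242 peaks (39.7%), and 31 introns held 2 or more. Of the intron peaks, 10 overlapped another intron peak and share replicate regions with it; with overlapping peaks counted once, 237 peaks and 35 such hosts were left.

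The hosts with 5 peaks were zfp-1 and lin-42. In zfp-1 (chrIII:8791535-8806305), 3 summits lay in intron 5 and 2 in intron 10 of 14. The relative signals in intron 5 were 4.77, 6.68 and 4.29 in replicate 3 and 5.29, 7.26 and 4.56 in replicate 4. The 2 regions of intron 10 overlapped each other and shared 1 replicate region, with 6.34 and 5.47. All replicate values of zfp-1 were thus above the median of intron peaks, but the weaker peak of intron 10 takes its values from the shared region. In the thresholded list its own relative signal was 2.691, against 6.541 for the stronger peak and a median of 2.705 over intron peaks.

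In lin-42, the heterochronic gene that encodes a homolog of the circadian protein Period (chrII:1233236-1252359), the 5 peaks lay in 5 different introns, the introns 1, 3, 5, 6 and 9 of 10. Their relative signals were 3.76, 5.16, 1.70, 3.91 and 3.06 in replicate 3, and 3.88, 3.21, 2.57, 4.99 and 2.74 in replicate 4. The peak in intron 5 was the lowest in both replicates. Its summit lay at −526 bp from another annotated start of lin-42, and those of introns 1 and 9 at −599 and −565 bp.

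Hosts with 4 peaks were pqn-41, pkg-2 and lit-1. All 4 of pqn-41 lay in its intron 15 (7770 bp), with relative signals from 4.63 to 6.58 in replicate 3 and from 3.61 to 7.03 in replicate 4. In pkg-2, a cGMP-dependent protein kinase, 3 lay in intron 5 (6824 bp) and 1 in intron 6, with 2.37 to 4.54 in replicate 3 and 2.40 to 4.14 in replicate 4. In lit-1, the Nemo-like kinase of the Wnt pathway, they lay in introns 2, 6, 8 and 11, with 1.999 to 2.93 in replicate 3 and 1.615 to 3.67 in replicate 4. The peaks of pqn-41 thus lay above the intron peak median, while those of lit-1 lay around it.

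The named hosts with 3 peaks included Y43F8B.2 and ppfr-1, of which 2 regions in ppfr-1 overlapped. In spop-1, named for the ubiquitin ligase adaptor SPOP, all 3 lay in the first intron (4847 bp), with relative signals of 3.22, 2.09 and 2.50 in replicate 3 and 4.82, 3.63 and 2.41 in replicate 4. In daf-5, a Ski/Sno homolog of the dauer TGF-beta pathway, all 3 lay in the first intron of 14446 bp, with 4.58, 2.22 and 2.17 and with 4.46, 1.96 and 2.45. The chemoreceptor gene srh-2 held 2 in its first intron and 1 in its second, which is 42 bp long; that summit lay at −106 bp from another start, with 3.28 in replicate 3 and 4.67 in replicate 4.

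**Figure D2:**
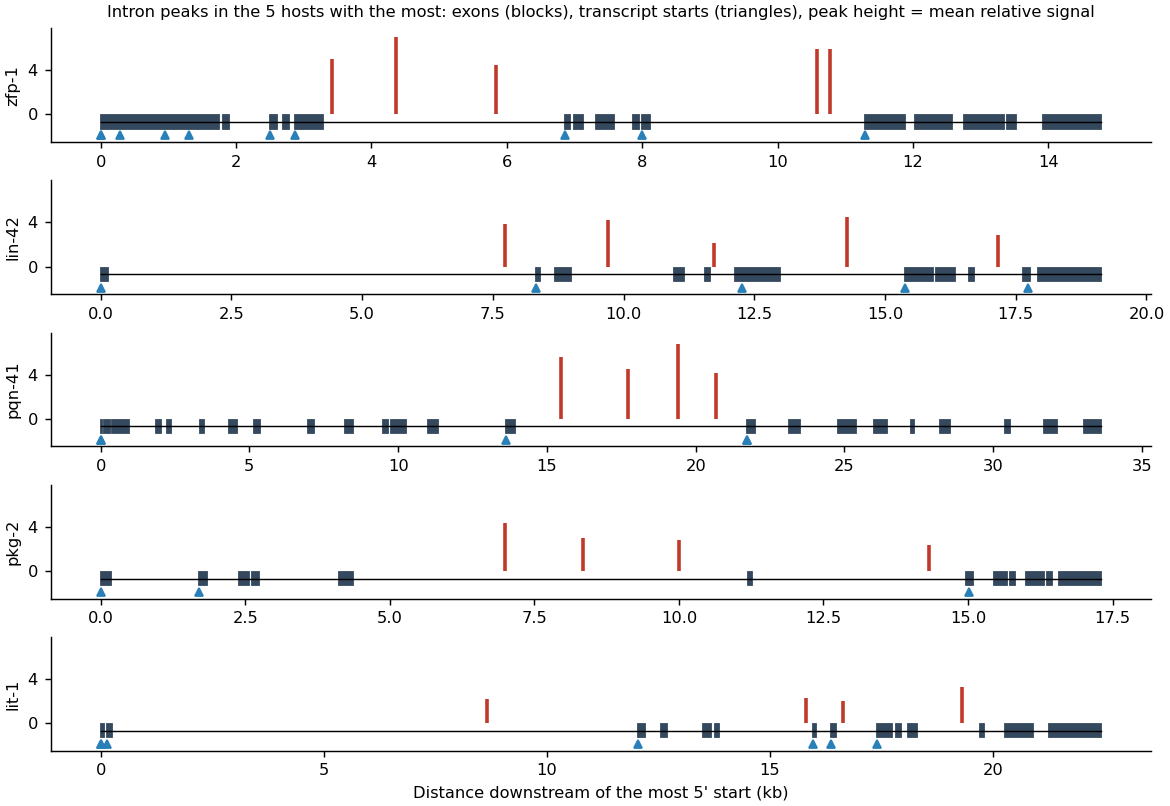
Maps of the 5 hosts with the most intron peaks, each in kb downstream of its most 5′ start, with merged exons as dark blocks and annotated transcript starts as blue triangles. Red lines stand at the peak summits, and their height is the mean relative signal of both replicates on the scale at the left. The overlapping peaks of zfp-1 share a replicate region and so have the same height. The peaks of pqn-41 share 1 intron, while those of lin-42 lie in 5.

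Intron peaks lay mostly in long introns. The median length of the intron around a summit was 2643 bp (95% interval 2089 to 3162 bp, range 42 to 19925 bp), against 1001 bp over all 23535735 autosomal bases that meet the rule. Introns are the gaps between the merged exons of all transcripts of a gene, and this base-by-base background already gives a long intron its greater weight. Introns of 1000 bp or more held 185 peaks (76.4%, 70.6 to 81.7%) and 50.1% of those bases. Counted once each, the 202 introns had a median of 2094 bp, against 95 bp over all 68406 introns with such a base. This last background gives a long intron no greater weight.

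The density of peaks was higher in each longer class of intron from 500 bp upwards. It was 5.19 peaks per Mb of bases that meet the rule in introns under 500 bp, 4.49 from 500 to under 1000 bp, 8.45 from 1000 to under 2000 bp, 17.6 from 2000 to under 4000 bp, 23.2 from 4000 to under 8000 bp and 27.2 (18.5 to 38.6) from 8000 bp, against 10.3 over all such bases. Intervals of the classes from 2000 bp upwards overlap each other, and lie above those of the classes under 2000 bp. The longest introns with a peak were those of Y48C3A.5 (19925 bp), T28B11.1 (17091 bp) and fkh-7, a forkhead gene (16465 bp). Their peaks had relative signals of 2.48 in replicate 3 and 2.096 in replicate 4 for Y48C3A.5, 2.27 and 2.60 for T28B11.1, and 3.14 and 3.61 for the stronger of 2 in that intron of fkh-7.

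The first intron held 77 peaks (31.8%, 26 to 38.1%), against 15.8% of the bases. The second intron held 41 (16.9% against 15.9%), the third 24 (9.92% against 13.9%), introns 4 and 5 together 46 (19.01% against 21.9%) and later ones 54 (22.3% against 32.5%). The density was 20.7 peaks per Mb (16.3 to 25.9) in the first intron and 11.0 (7.86 to 14.9) in the second. Intron order and length go together, so both were set against each other. From 1000 to under 4000 bp, first introns held 24.07 peaks per Mb (17.04 to 33.04), against 9.18 (7.04 to 11.8) in later introns. From 4000 bp, they held 26.5 (18.3 to 37.3), against 23.4 (17.5 to 30.7), which overlap. Under 1000 bp the densities were 6.70 (2.46 to 14.6) and 4.703 (3.50 to 6.18), which overlap too. Only in the middle class of length did the intervals of first and later introns not overlap. Density over all introns also differed within that class, with 8.45 per Mb from 1000 to under 2000 bp and 17.6 from 2000 to under 4000 bp. A difference in length between first and later introns inside the class was not tested. The intervals also take neighbouring peaks as independent.

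**Figure D3:**
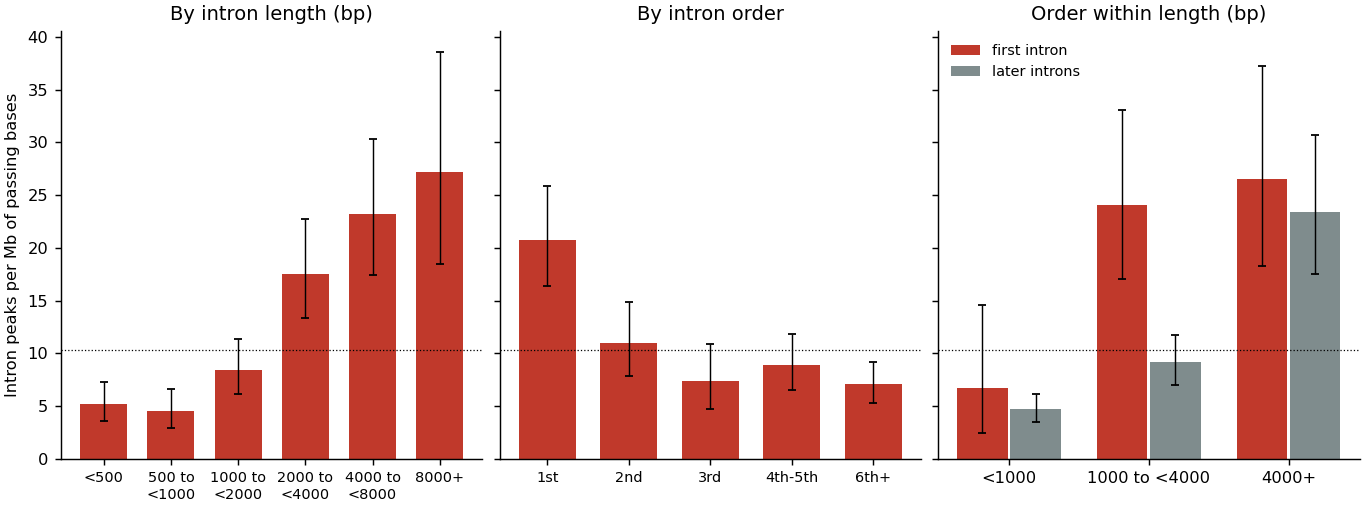
Intron peaks per Mb of autosomal bases that meet the rule, by length of the intron (left), by its order from the 5′ end (middle), and by order within 3 classes of length (right, first introns in red and later introns in grey). Bars are densities, error bars exact Poisson 95% intervals, and the dotted line is the density over all such bases, 10.3 per Mb; the density reaches 27.2 per Mb in introns of 8000 bp or more.

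Peaks in first introns had a slightly lower median signal than those in later introns. Their median relative signal was 2.47 in replicate 3 and 2.44 in replicate 4, against 2.70 and 2.57 in later introns. They were among the strongest regions of both replicates in 48.1% of cases, against 65.5% of peaks in later introns. Within their introns, 43.0% of the summits (36.7 to 49.5%) lay in the part of equal length nearest the 3′ end when an intron was divided into 3, against 35.7% of the bases. The middle part held 75 (31.0% against 33.7%) and the part nearest the 5′ end 63 (26.03% against 30.5%). The median distance downstream of the host's most 5′ start was 4162 bp (range 514 to 40194 bp), against 2998 bp over the bases.

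Many summits lay just upstream of another annotated start of the same gene, which the rule did not use. Within 500 bp of such a start were 50 peaks (20.7%, 15.7 to 26.3%), against 9.20% of the bases. Of these 50, 43 lay upstream of that start (86%, 73.3 to 94.2%) and 7 did not; the median position was −183.5 bp. Of the bases within 500 bp of such a start, 59.4% lay upstream. Starts of ncRNA, lincRNA or antisense RNA genes lay within 500 bp of 26 peaks (10.7%, 7.14 to 15.3%), against 4.05% of the bases. The peaks of Y43F8B.2 and nurf-1, at −7 and −122 bp from another start, were the strongest of this kind among those named.

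**Figure D4:**
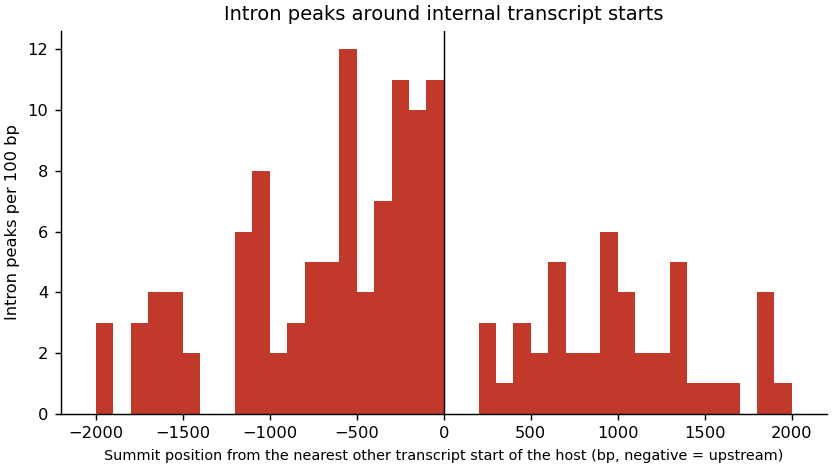
Number of intron peaks per 100 bp (y axis) by the distance of the summit from the nearest other annotated transcript start of its host (x axis, bp, negative values upstream), for the 145 peaks within 2000 bp of one. The counts are high just upstream of the start, where 43 summits lie within 500 bp, against 7 at or downstream of it.

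Hosts with more than 1 annotated start were common. Starts at different positions were counted apart here, however close, so not all of them are internal to the gene. Of the 184 hosts, 147 (79.9%) had more than 1 annotated start, against 31.2% of the 14543 genes, and genes with more than 1 start held 57.1% of the bases that meet the rule and 84.3% of the peaks. The other peaks, those over 500 bp from any other start of the host, had a median relative signal of 2.63 in replicate 3 and 2.54 in replicate 4, and those near one 2.53 and 2.60. A peak at the host's own most 5′ start was present in 28 of the 184 hosts (15.2%, 10.4 to 21.2%), against 5.11% of the 14543 genes and 5.29% of the bases. Those 28 hosts included ppfr-1, srh-2 and skn-1, while zfp-1, lin-42, pqn-41, pkg-2 and lit-1 had no thresholded peak there. Hosts were long genes, with a median span of 8018 bp, against 2287 bp over all genes with a base that meets the rule. Each gene counts once there, which gives a long gene no greater weight, and no background of span weighted by bases was computed.

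GA repeats were the most common of the motifs searched. GAGAGA, on either strand, was found within 50 bp of 79 summits (32.6%, 26.8 to 38.95%), against 6.198% of equally long windows placed 300 bp away on both sides and 4.18% of windows centred on all bases that meet the rule. It was also found at 30.8% (26.3 to 35.6%) of peaks between genes and at 17.9% (15.2 to 20.8%) of promoter peaks. The E-box CACGTG was found at 26 summits (10.7%, 7.14 to 15.3%), against 2.07% of the flanks and 1.40% of the bases, and at 8.91% of peaks between genes and 5.15% of promoter peaks. CTGCGTC, a motif added after the windows of the strongest peaks had been seen, was found at 38 summits (15.7%, 11.4 to 20.9%), against 1.45% of the flanks and 0.818% of the bases, and at 12.2% of peaks between genes and 9.08% of promoter peaks. The windows in which that motif was first seen, those of epg-9 and Y111B2A.12 among them, count toward its share. None of the 3 motifs contains another, and all were searched on both strands.

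GC content moved with these shares. The summit windows had a median GC content of 46.5%, against 35.6% in the flanks and a mean of 32.9% over the bases. Among windows whose GC content lay between the quartiles of the intron peaks (41.6 to 51.5%), GAGAGA was found at 45 of 127 summits (35.4%, 27.1 to 44.4%), against 7.78% of bases, and CTGCGTC at 22 (17.3%, 11.2 to 25.04%), against 2.74%. Windows in which CTGCGTC was first seen, that of epg-9 among them, were not left out here. Its share is thus no independent test of that motif. CACGTG was found at 10 (7.87%, 3.84 to 14%), against 3.51%, which lies just under that interval. CGCGC was found at 43 of the 242 summits (17.8%), against 4.49% of bases and 32.7% of promoter peaks, and within the same range of GC content at 13.4% (7.995 to 20.6%) of summits, against 11.0% of bases.

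The homeodomain core TAATTA was found at 1 summit (0.413%), against 5.32% of bases, and a run of 8 T at 8 summits (3.31%), against 19.6%. Within the same range of GC content, TAATTA was found at 0 of 127 summits (0 to 2.86%), against 1.84% of bases, and the run of T at 2.36% (0.490 to 6.75%), against 4.59%, so both intervals include the share of bases there. TGATAA, the core of sites of GATA factors, was found at 20 summits (8.26%, 5.12 to 12.5%), against 8.45% of bases. The other 7 motifs of the list were found at 0 to 11 summits each, and on 0.681 to 2.91% of bases: CAGCTG and CACCTG of other E-boxes, the AP-1 site TGACTCA, the CRE site TGACGTCA, the forkhead site TGTTTAC, the nuclear receptor site AGGTCA and the TEAD site CATTCC. A match describes the letters in the window and says nothing of which protein was there.

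The matches were most frequent around the summits. In 50 bp bins along the reference strand, GAGAGA began in the bin just before the summit in 20.2% of intron peaks and in the bin just after it in 17.8%. The next bins out were nearly as high, with 19.0% and 17.4%. The bin farthest before the summit, the lowest of all, had 2.07% and that farthest after it 2.89%, against 2.29% for bins placed on all bases. For CTGCGTC the bins next to the summit had 8.68% and 7.85%, against 0.445% for all bases. Windows in which CTGCGTC was first seen are included in its bins. For CACGTG the bins next to the summit had 6.61% and 4.55%, against 0.743%.

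**Figure D5:**
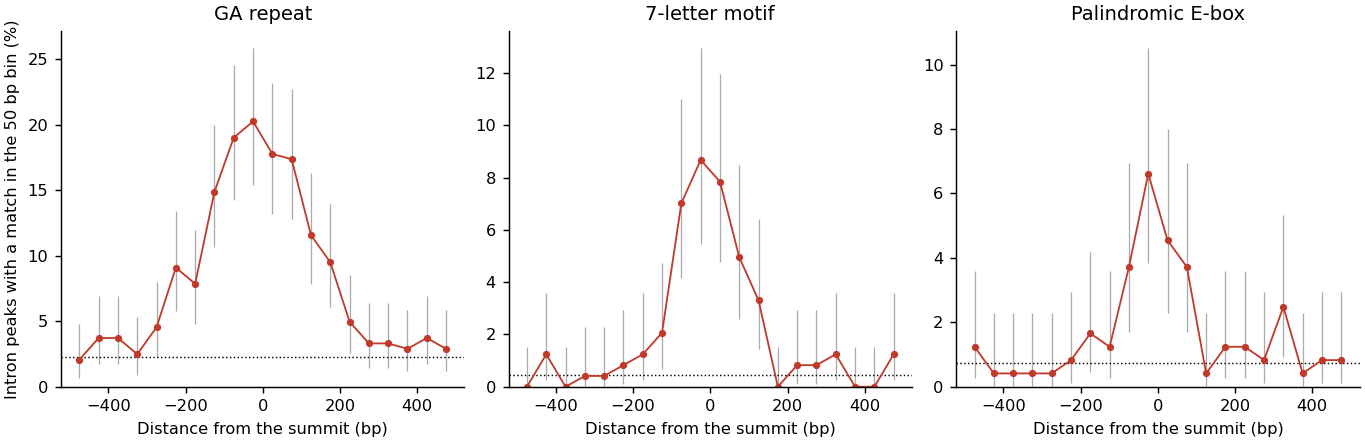
Share of the 242 intron peaks with a match in each 50 bp bin (y axis, percent) by distance from the summit (x axis, bp, on the strand of the reference), for the GA repeat, for the 7-letter motif added after the data had been seen, and for the palindromic E-box. Points are shares, grey lines exact 95% intervals, and dotted lines the share for bins placed on all bases that meet the rule; the GA repeat reaches 20.2% next to the summit, against 2.29% for all bases.

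At least 1 of the 3 motifs was found at 114 summits (47.1%), 2 or 3 of them at 28, and none at 128. Summits with GAGAGA had a median relative signal of 2.85 in replicate 3 and 3.09 in replicate 4, against 2.51 and 2.42 for those without. They were among the strongest of both replicates in 70.9% of cases, against 54.6% of peaks without. The repeat was found at 35.1% (24.5 to 46.8%) of summits in first introns and at 31.5% (24.5 to 39.2%) in later ones, and at 26% (14.6 to 40.3%) of summits near another start and 34.4% (27.7 to 41.6%) elsewhere. Both pairs of intervals overlap. GAGAGA summits lay in introns with a median of 3573 bp, against 2098 bp for those without.

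The 10 gene lists are selections of genes, and their counts say nothing of genes outside them. They were chosen with earlier results of these data known, so a high share in a list is no independent test of it. Neither the share of hosts nor the density was matched for intron length or gene span. Density was higher in long introns and hosts were long genes, and the part of length in the values of the lists was not tested. Among the lists, regulators of the epidermis, molting and developmental timing had the highest share of hosts. There, 5 of 27 genes with a base that meets the rule were hosts (18.5%, 6.30 to 38.1%), against 1.27% of all genes, and they held 10 peaks, or 70.9 per Mb (33.99 to 130.3) against 10.3. Besides lin-42 with its 5 peaks, these were lin-29, a zinc finger gene of the larval-to-adult switch, nhr-23, a nuclear receptor gene needed for molting, elt-1, a GATA factor gene, and grh-1, the Grainyhead homolog. In intron 4 of lin-29 the 2 peaks had 2.78 and 2.31 in replicate 3 and 2.50 and 2.25 in replicate 4, and the peak of nhr-23 had 2.49 and 2.61. The peak of grh-1 had 2.18 in replicate 3 and 2.67 in replicate 4, and that of elt-1 2.56 and 1.81, of which the replicate 4 value lay under the lower quartile of intron peaks in replicate 4 (2.08).

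The list of other transcription factors, which does not hold all of them and lacks the host fkh-7, had 8 hosts of 66 (12.1%, 5.38 to 22.5%), with 15 peaks or 50.8 per Mb (28.4 to 83.8). The hosts of highest signal, each given at the stronger of its 2 peaks, were hlh-30, the TFEB homolog (3.47 in replicate 3 and 3.85 in replicate 4), nhr-85 (3.28 and 3.37) and jun-1, a homolog of the AP-1 factor Jun (3.30 and 3.21). The others were atf-7, crh-1, lin-39, mef-2 and skn-1, the Nrf homolog, whose 3 peaks all lay in its first intron. The list of signalling genes had 8 hosts of 55 (14.5%, 6.50 to 26.7%), with 10 peaks or 33.9 per Mb (16.2 to 62.3). They were daf-5, kin-1, the catalytic subunit of protein kinase A (4.82 and 3.29), daf-16, the FOXO homolog (2.48 and 3.81), and lag-1, let-363, mig-1, mpk-1 and unc-43.

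The list of histone acetylation and other chromatin genes had 2 hosts of 54 (3.70%, 0.452 to 12.7%). These were zfp-1 and nurf-1, which held 6 peaks or 35.6 per Mb (13.1 to 77.5). That list does not hold all chromatin genes, and the host pbrm-1 is among those it lacks. The list of RNA-binding genes had 2 hosts of 47, asd-2, a STAR-family splicing factor gene (2.19 in replicate 3 and 2.21 in replicate 4), and ain-2, a component of the miRNA silencing complex (2.55 and 1.23). The list of axon guidance genes had 2 of 38, the Eph receptor gene vab-1 (2.15 and 2.88) and unc-73, the Trio homolog (2.06 and 2.17). The intervals on the share of hosts in these 3 lists all include the background of 1.27%. The interval on density lay above the 10.3 per Mb of all bases in the chromatin list, where zfp-1 alone gave 5 of the 6 peaks. In the RNA-binding list (18.5 per Mb, 2.24 to 66.8) and the axon guidance list (5.37, 0.651 to 19.4) it included 10.3.

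No listed gene for ion channels and transporters (0 of 28), muscle (0 of 30), neuronal and synaptic functions (0 of 23) or ribosomal proteins (0 of 23) was a host. A limit of 3 counts allows shares of up to 10.7, 10, 13.0 and 13.0% in these lists, and the upper Clopper-Pearson bounds are 12.3, 11.6, 14.8 and 14.8%. All lie above the background of 1.27%, so a lower share was not detectable. Genes outside the lists can differ: mod-5, a serotonin transporter gene, and twk-13, a potassium channel gene, both named after their values were seen, were hosts. Of the mod-5 peak, 61.2% was repeated sequence. The twk-13 summit lay in an intron of 65 bp, shorter than the peak of 410 bp. The listed ribosomal protein genes hold only 0.00224 Mb of bases that meet the rule. The gene lsy-12 itself, which the transgene carries, held no intron peak of this kind, although 4 pooled candidate summits and 1 thresholded summit lay inside it.

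On the chromosomes, the density was 12.6 peaks per Mb on II, 11.98 on III, 11.4 on IV and 9.34 on I, against 6.70 (4.61 to 9.41) on V. The intervals of II (9.38 to 16.7) and V overlap by little. At the limit of 500 bp, the nearest peaks counted were in C03C10.7 (514 bp from a protein-coding start, relative signal 2.97 in replicate 3 and 1.34 in replicate 4), clec-221 (542 bp, 3.06 and 1.70) and csnk-1 (560 bp, 2.48 and 1.73). The nearest intron peaks not counted were in R166.3 (481 bp, 2.61 and 2.62), B0432.10 (476 bp, 2.70 and 2.26) and M117.3 (475 bp, 2.37 and 1.65). In all, 48 intron summits were left out because a protein-coding start was at most 500 bp away.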

How the data were processed

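ChIP-seq peak lists of both replicates, a pooled list and a thresholded list were used, all for ce11 (WBcel235). The authors made the candidate lists with a control alignment and thresholded them by the irreproducible discovery rate, per the deposited text descriptions. Neither aligner nor peak caller is stated in the sources used here. The deposited signal has no stated scale and was used within a list. Peaks were counted by the authors' −log10 q-value, and placed by the deposited summit offset; for 95.9% of the intron peaks the summit is the middle of the region.

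Genes came from Ensembl release 115, sequences from the RefSeq assembly of WBcel235, and positions count from 1. Medians, shares and exact intervals were computed with Python 3.11.15 and scipy 1.17.1. Each replicate's value comes from the strongest region that overlapped the peak, so overlapping peaks can share a value. With 1 group of 2 samples, no test was run. The background is every autosomal base that meets the rule. The peaks, the 10 gene lists and the 13 motifs were chosen with earlier results of these data known, and 7 of 549 list entries had no match in the annotation. Named were the hosts of the 15 intron peaks of highest signal, the 10 hosts with the most peaks, up to 3 hosts per list, those of the 3 longest introns, those nearest the 500 bp limit and lsy-12. Other hosts of the lists, with skn-1 among the hosts that also had a promoter peak, were named after their values were seen.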

Additional observations from a re-analysis of the deposited data

How the results depend on the processing

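Of 107 alternatives computed for 12 results, 85 moved them little and 22 more. With the peaks of above-median signal alone, 90 intron peaks in 71 hosts were left, 12 of them with 2 or more; 94.4% were among the strongest of both replicates, the median relative signal was 3.81 and GAGAGA was found at 45.6%. With a q-value of 0.01 or below, 107 peaks in 83 hosts were left, 17 with 2 or more, at 90.7% and 3.46. With the whole peak in no exon, 154 peaks in 115 hosts were left, with 39.6% in the first intron, a median intron length of 3907 bp, 94.8% in introns of 1000 bp or more and 11.0% near another start; short introns cannot hold a whole peak. With 500 bp kept from every annotated transcript start, the share near another start is 0 by construction, and 191 peaks were left, 31.4% of them in the first intron. In a window of 100 bp to either side, GAGAGA was found at 50.8%, CTGCGTC at 25.21% and CACGTG at 16.1%. In each of these cases fewer peaks, or a longer window, enter by construction. The remaining alternative that moved a result more was the median relative signal without replicate 4. It was 2.54 over 248 peaks, against 2.59 in the main setting.

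Leaving out either replicate, by taking the 2095 strongest regions of the other, gave 240 to 248 peaks, 176 to 190 hosts, 37 to 41 hosts with 2 or more, 28.7 to 29.0% in the first intron, a median length of 2708 to 2959 bp, 75.8 to 77.9% in introns of 1000 bp or more, 18.6 to 22.5% near another start and a median relative signal of 2.54 to 2.61. The share in both replicates has no such value. No paired analysis was possible because there was 1 group. Without the 11 peaks in repeated sequence, or with overlapping peaks counted once, alternatives chosen after seeing the data, every one of these results moved little. Depth is unknown, and the lists hold 30000 regions each whatever it was.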
